A study of Mus musculus with 24 samples.

Results

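Expression of 10 genes of neurotrophin and CREB signalling was followed in prefrontal cortex from wild-type adult male mice. The genes were chosen by name, with earlier results of these data known, out of 45777 in the deposited table. All 10 were among the 18380 genes with enough counts to be tested. They were the ligands Bdnf and Ntf3, the receptors Ntrk2, Ntrk3, Ngfr and Sort1, the transcription factors Creb1, Crem and Creb5, and the secreted product Vgf. The 24 RNA-seq libraries formed 4 groups of 6. MS_EC12 mice had been through maternal separation, in which young pups are taken from their mother as an early-life stress, and received EC-12, a heat-killed Enterococcus faecalis preparation, for 5 weeks. Control_EC12 mice received EC-12 for 5 weeks without maternal separation. MS mice had maternal separation alone, and Control mice had neither treatment. Nothing in the labels ties each library to an animal of its own. The p-values therefore describe spread among libraries, which may be partly technical.

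Neurotrophins are secreted growth factors that keep neurons alive and adjust their synapses. BDNF acts through the receptor kinase TrkB (Ntrk2) and neurotrophin-3 mainly through TrkC (Ntrk3), while p75NTR (Ngfr) and sortilin (Sort1) bind the uncleaved precursors and sortilin also sorts pro-BDNF inside the cell. Trk receptors signal through the MAP kinase, PI3 kinase and phospholipase C routes, which lead to phosphorylation of CREB, a nuclear factor that binds the cAMP response element (CRE) and drives Bdnf, Vgf and immediate early genes in active neurons. Crem encodes a close relative of CREB with activating and repressing isoforms, and Creb5 a more distant relative of the ATF2 type.

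Matches to the CRE were found in the members' promoters, and the promoters that hold them are shown because CRE binding links CREB to its targets. RefSeq promoter sequences (GRCm38.p6, the mm10 assembly, 250 bases before to 50 after each transcript start) were at hand for 14 starts of 6 members: Creb1, Bdnf, Creb5, Ntf3, Ngfr and Ntrk2. The full CRE, TGACGTCA, reads the same on both strands. It was present at 1 of the 2 Creb5 starts, 45 bases before the start, and in 1.79% of the 32851 promoters of the table. The CRE core, TGACG or its reverse complement CGTCA, which every full CRE contains, occurred in 20.8% of those promoters. Among the members it was found in the same Creb5 promoter and in 1 of the 7 Bdnf promoters, 35 bases before the start. Capitals mark the full CRE in Creb5 (chr6:53287053-53287352, plus strand) and the core in Bdnf (chr2:109692186-109692485, plus strand). A match is a description of the sequence and not evidence of binding.
Creb5: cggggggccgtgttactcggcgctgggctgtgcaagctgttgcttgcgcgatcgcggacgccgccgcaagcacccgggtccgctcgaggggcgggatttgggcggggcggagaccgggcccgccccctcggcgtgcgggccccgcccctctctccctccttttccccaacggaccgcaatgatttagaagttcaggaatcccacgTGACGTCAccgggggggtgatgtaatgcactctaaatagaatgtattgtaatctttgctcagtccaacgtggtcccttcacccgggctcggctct
Bdnf: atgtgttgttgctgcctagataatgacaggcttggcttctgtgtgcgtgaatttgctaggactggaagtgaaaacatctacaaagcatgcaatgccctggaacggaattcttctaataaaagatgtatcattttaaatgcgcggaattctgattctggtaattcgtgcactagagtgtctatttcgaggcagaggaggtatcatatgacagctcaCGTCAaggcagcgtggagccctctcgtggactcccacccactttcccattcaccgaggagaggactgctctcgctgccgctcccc

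Total counts ran from 26250197 to 39252382 per library. The libraries differed in how expression depended on the GC content of transcripts. This dependence is given as the GC slope, the change in log2 expression relative to the other libraries per 10 percentage points of GC. It was above 0 in 4 MS_EC12, 2 Control_EC12, 1 MS and 0 Control libraries, 7 in all, and below 0 in the other 17. The mean slope was 0.235 ± 0.342 in MS_EC12, −0.00628 ± 0.245 in Control_EC12, −0.105 ± 0.191 in MS and −0.124 ± 0.0263 in Control (SD, n = 6). Since the slope moves with the groups, results are given in all 24 libraries and the main ones again in the 17 libraries with slopes below 0, of which 2 were MS_EC12, 4 Control_EC12, 5 MS and 6 Control. The 5 excitatory neuron markers were detected in every group, with summed levels of 1306 to 1863 CPM in MS_EC12, 1299 to 1853 in Control_EC12, 1188 to 1729 in MS and 1408 to 1597 in Control (CPM, counts scaled to library size). In such bulk RNA, fewer cells of a type and less RNA per cell cannot be told apart.

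The 10 genes covered a wide range of levels. On the TPM scale, which corrects for transcript length, the level averaged 200 for Vgf, 195 for Ntrk2 and 177 for Sort1 over the 24 libraries. Their ranges, 140 to 272, 127 to 223 and 95.7 to 206 TPM, overlapped, so the order of these 3 lies within their spread. Ntrk3 followed at 47.8 TPM. Creb1, Bdnf and Crem averaged 15.3, 14.0 and 14.0 TPM and their ranges overlapped as well. Ngfr averaged 4.33 TPM, Creb5 1.51 TPM and Ntf3 1.27 TPM, and the ranges of Creb5 (0.688 to 2.44 TPM) and Ntf3 (0.628 to 2.27 TPM) overlapped. The counts behind the lowest genes were small, 12 to 41 reads per library for Ntf3 and 46 to 182 for Creb5, against 16793 to 24311 for Ntrk2.

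**Figure D1:**
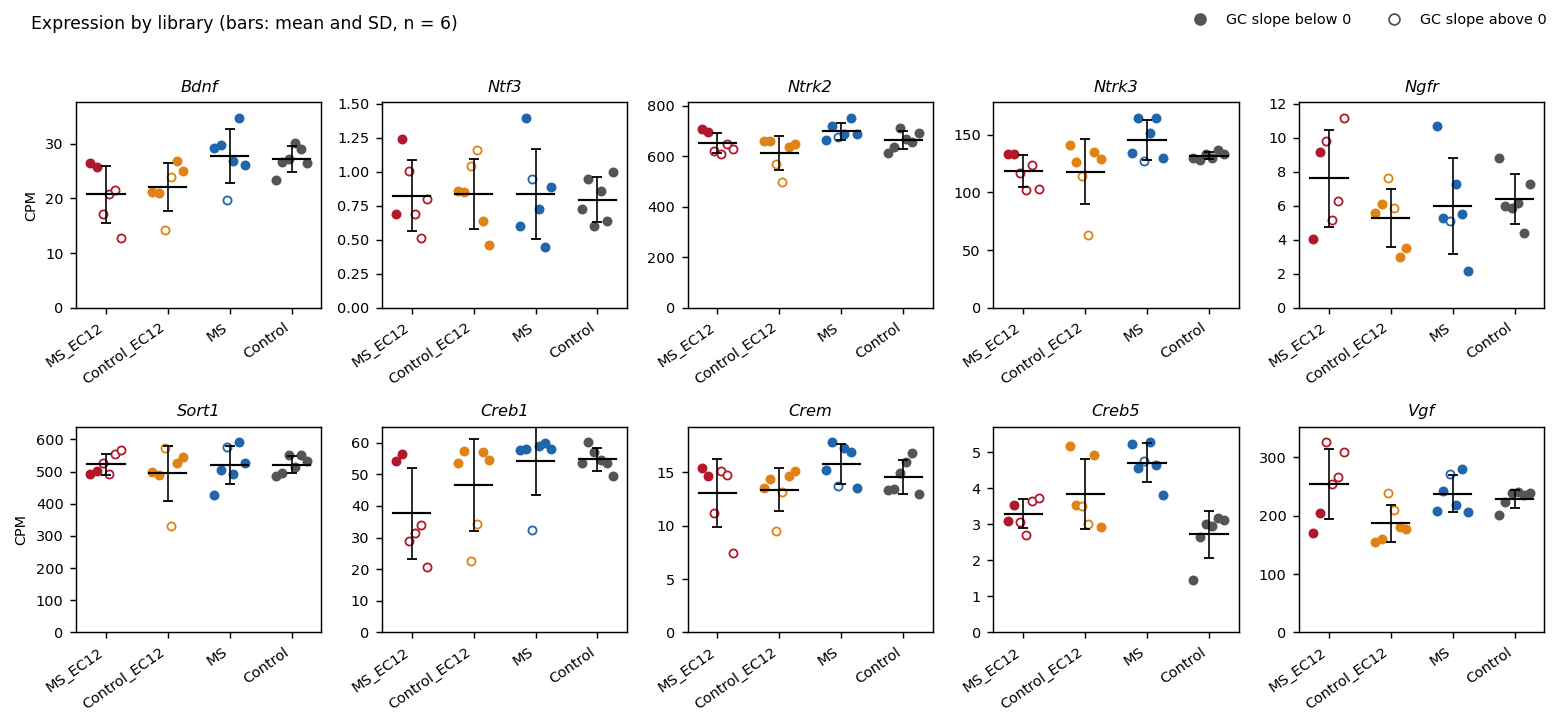
Expression of the 10 genes in each library, in CPM on axes from 0, with 1 point per library, open points for the 7 libraries with a GC slope above 0, and bars for the mean and SD of 6 libraries. Creb5 in MS (3.83 to 5.28 CPM) lies above all Control points (1.46 to 3.18 CPM), although the deposited TPM values overlap, and the open points of Creb1 (20.7 to 34.3 CPM) lie below all its filled points (49.3 to 60.1 CPM).

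No member passed the test in any comparison when all 24 libraries were fitted together (edgeR's quasi-likelihood test, Benjamini-Hochberg adjusted p under 0.05). For MS against Control, 0 of 10 passed, against 0.0326% of all genes tested. For Control_EC12 against Control it was 0 of 10, against 0.0218% of genes. MS_EC12 against MS likewise gave 0 of 10 with 0.163% of genes, and MS_EC12 against Control_EC12 0 of 10 with 0.261%. For MS_EC12 against Control 14.1% of genes passed and again 0 of 10 members did. The interaction of rearing and supplement gave 0 of 10 members and 0.0109% of genes. At an unadjusted p under 0.05 the members numbered 1 of 10 for MS against Control (3.6% of all genes), 2 for Control_EC12 against Control (8.93%), 4 for MS_EC12 against MS (31.8%) and 1 for MS_EC12 against Control_EC12 (15.9%). They numbered 2 for MS_EC12 against Control (38.3%) and 2 for the interaction (4.8%). The counts for MS_EC12 against MS and against Control were thus near or below the share of all genes. DESeq2 called only Creb5, in MS against Control (0.12% of genes called), in MS_EC12 against MS (9.5%) and in the interaction (0.103%). It called 0 of 10 in Control_EC12 against Control (0.386% of genes), in MS_EC12 against Control_EC12 (0.936%) and in MS_EC12 against Control (23.5%).

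In the 17 libraries with GC slopes below 0, 2 members passed, Creb5 and Vgf. Creb5 was the 1 of 10 in MS against Control, where 0.484% of genes passed, and Vgf the 1 of 10 in Control_EC12 against Control, where 0.473% passed. None of the 10 passed in MS_EC12 against MS (0.0762% of genes), MS_EC12 against Control_EC12 (0.18%), MS_EC12 against Control (1.05%) or the interaction (0.0109%). With the GC slope as a covariate in the fit of all 24 libraries, Creb5 and Vgf again passed in those comparisons, where 0.337% of genes passed for MS against Control and 0.718% for Control_EC12 against Control.

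**Figure D2:**
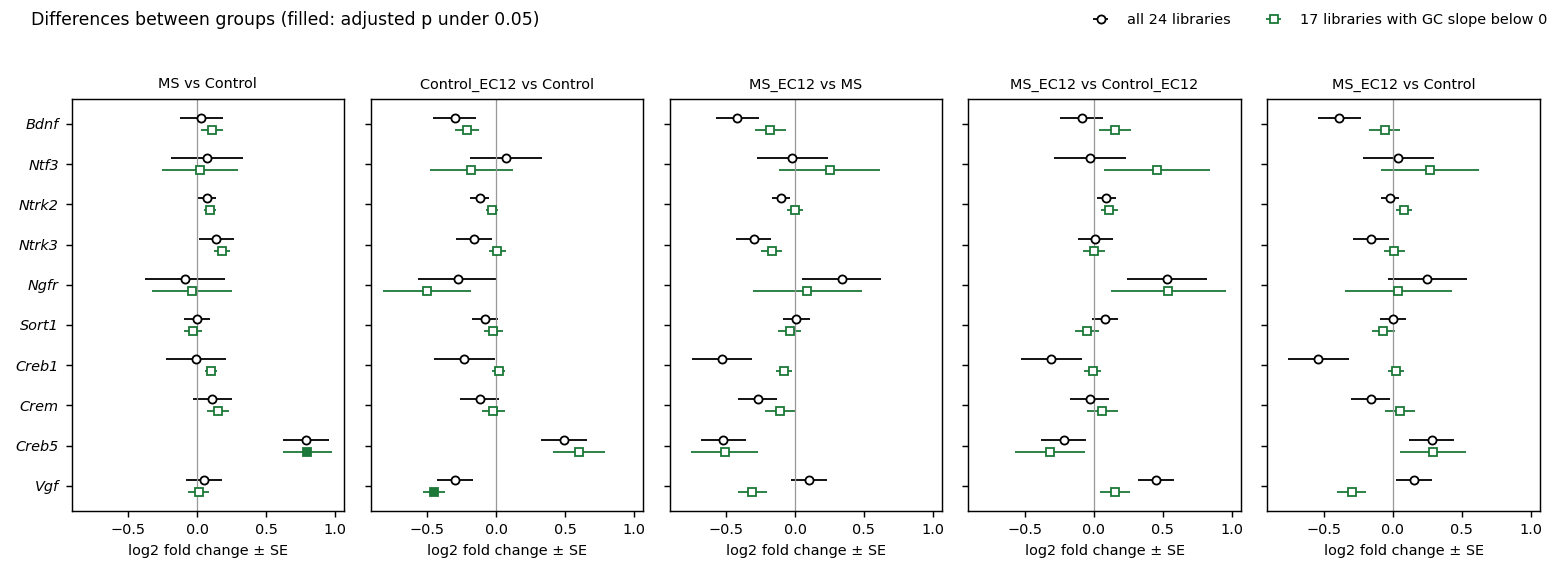
Log2 fold change with its SE for the 10 genes in 5 comparisons, the first-named group over the second, in all 24 libraries (circles) and in the 17 libraries with GC slopes below 0 (squares), filled where the adjusted p was under 0.05. The filled squares are Creb5 in MS against Control (0.80) and Vgf in Control_EC12 against Control (−0.45), and the Creb1 values of −0.53 and −0.54 for MS_EC12 against MS and Control are −0.08 and 0.02 in the 17 libraries.

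Bdnf, the activity-dependent neurotrophin of the cortex, had lower medians in both supplemented groups. Its lowest, median and highest levels were 12.8, 21.2 and 26.4 CPM in MS_EC12, 14.3, 22.6 and 26.8 CPM in Control_EC12, 19.7, 28.1 and 34.8 CPM in MS, and 23.4, 27.0 and 30.2 CPM in Control. Every MS_EC12 library lay below both the MS mean and the Control mean, although the groups overlapped. The log2 fold change was −0.42 ± 0.155 for MS_EC12 against MS (SE, adjusted p = 0.0952 in edgeR) and −0.39 ± 0.155 for MS_EC12 against Control (adjusted p = 0.0732), and neither passed. In the 17 libraries these values were −0.18 ± 0.113 (adjusted p = 0.671) and −0.06 ± 0.11 (adjusted p = 0.861). Bdnf transcripts have a median GC content of 40.4%, the lowest of the 10. Bdnf stood at 12.8 to 24 CPM in the 7 libraries with slopes above 0, against 21.0 to 34.8 CPM in the 17 below 0. For Control_EC12 against Control the log2 fold change was −0.30 ± 0.155 (adjusted p = 0.582), and −0.21 ± 0.0875 in the 17 libraries (adjusted p = 0.283), with all 6 Control_EC12 libraries below the Control mean. For MS against Control it was 0.03 ± 0.155 (adjusted p = 1.0), and 0.11 ± 0.0806 in the 17 libraries (adjusted p = 0.649), with 3 of 6 MS libraries above the Control mean.

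Ntf3, which encodes neurotrophin-3, had few counts. From lowest through median to highest, its levels were 0.511, 0.747 and 1.24 CPM in MS_EC12, 0.463, 0.858 and 1.16 CPM in Control_EC12, 0.446, 0.809 and 1.4 CPM in MS, and 0.601, 0.794 and 1.0 CPM in Control. The groups overlapped over nearly their whole ranges. The log2 fold changes in the 5 group comparisons lay between −0.03 and 0.07, with SEs of 0.259 to 0.261, and in the 17 libraries MS_EC12 against Control_EC12 gave 0.46 ± 0.385 (adjusted p = 0.698). Differences within these errors were not detectable at this depth.

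Ntrk2, which encodes TrkB, had closely spaced levels. The lowest, median and highest were 610, 639 and 708 CPM in MS_EC12, 498, 643 and 662 CPM in Control_EC12, 666, 687 and 753 CPM in MS, and 614, 663 and 713 CPM in Control. All 6 MS libraries exceeded the Control mean and all 6 Control_EC12 libraries lay below it, yet the groups overlapped. The log2 fold changes were 0.07 ± 0.0668 for MS against Control (adjusted p = 1.0) and −0.12 ± 0.0668 for Control_EC12 against Control (adjusted p = 0.615). For MS_EC12 against MS it was −0.10 ± 0.0668 (adjusted p = 0.296), and in the 17 libraries the adjusted p was 0.991. MS against Control gave 0.09 ± 0.0431 in the 17 libraries (adjusted p = 0.48), and Control_EC12 against Control −0.03 ± 0.046 (adjusted p = 0.839).

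Ntrk3, which encodes TrkC, had levels of 102, 120 and 133 CPM in MS_EC12, 63.4, 127 and 141 CPM in Control_EC12, 127, 143 and 165 CPM in MS, and 128, 132 and 137 CPM in Control (lowest, median and highest). The MS libraries spread more widely than the Control libraries and overlapped them, with 4 of 6 MS libraries above the Control mean. The log2 fold change was −0.30 ± 0.128 for MS_EC12 against MS (adjusted p = 0.125) and −0.17 ± 0.0777 in the 17 libraries (adjusted p = 0.506). All 6 MS_EC12 libraries were below the MS mean. MS against Control gave 0.14 ± 0.128 (adjusted p = 1.0), and 0.18 ± 0.0557 in the 17 libraries (adjusted p = 0.195). Control_EC12 replicate 4, at 63.4 CPM, stood far below the next Control_EC12 library at 114 CPM.

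Ngfr, the p75 receptor that binds all neurotrophins, varied widely within groups. Levels ran 4.06, 7.71 and 11.2 CPM in MS_EC12, 3.01, 5.74 and 7.63 CPM in Control_EC12, 2.16, 5.39 and 10.7 CPM in MS, and 4.42, 6.06 and 8.79 CPM in Control (lowest, median and highest). Each group overlapped each of the others. The widest difference was MS_EC12 against Control_EC12, at 0.53 ± 0.289 log2 units (adjusted p = 0.33), and it was 0.54 ± 0.416 in the 17 libraries (adjusted p = 0.66). Ngfr is strongly expressed in cholinergic neurons of the basal forebrain and septum. Summed over 7 markers of basal forebrain, septum and hypothalamus, levels were 64.2 to 115 CPM in MS_EC12 and 60.1 to 95.5 in Control_EC12. They were 44.2 to 98.1 CPM in MS and 52.4 to 75.2 in Control, with Hcrt at 0 in all 6 MS libraries. The list includes hypothalamic peptide genes such as Avp, Oxt and Hcrt, so the sum does not measure cholinergic tissue alone. The part of these regions in the Ngfr values was not tested.

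Sort1, which encodes the sorting receptor sortilin, had nearly the same median in each group. The levels were 491, 515 and 566 CPM in MS_EC12, 332, 513 and 572 CPM in Control_EC12, 427, 516 and 591 CPM in MS, and 486, 524 and 550 CPM in Control (lowest, median and highest). The medians of the 4 groups lay between 513 and 524 CPM. The log2 fold changes in the 5 group comparisons ran from −0.08 to 0.08 with an SE of 0.0964, and in the 17 libraries from −0.07 to −0.02 with adjusted p-values of 0.778 to 0.941. Control_EC12 replicate 4 was again the lowest library, at 332 CPM, with the next in its group at 490 CPM.

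Creb1, which encodes CREB itself, was divided by GC slope. Its lowest, median and highest levels were 20.7, 32.7 and 56.5 CPM in MS_EC12, 22.7, 54.1 and 57.5 CPM in Control_EC12, 32.3, 58.0 and 59.9 CPM in MS, and 49.3, 54.1 and 60.1 CPM in Control. The 7 libraries with slopes above 0 held 20.7 to 34.3 CPM (median 31.5), and the 17 below 0 held 49.3 to 60.1 CPM (median 56.9), with no overlap. Creb1 was the one member of the 10 whose levels did not overlap between those 2 sets. The sets were defined by slopes fitted to the same expression values. The share of all genes without overlap between them was not determined, so the split may not be particular to Creb1. The log2 fold change was −0.53 ± 0.22 for MS_EC12 against MS (adjusted p = 0.118) and −0.54 ± 0.22 for MS_EC12 against Control (adjusted p = 0.0797). In the 17 libraries these became −0.08 ± 0.061 (adjusted p = 0.729) and 0.02 ± 0.0593 (adjusted p = 0.93). The 2 MS_EC12 libraries with slopes below 0 had 54.3 and 56.5 CPM, inside the range of the Control group. MS against Control gave −0.01 ± 0.219 (adjusted p = 1.0), and 0.10 ± 0.044 in the 17 libraries (adjusted p = 0.392).

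Crem, which encodes the cAMP response element modulator, had levels of 7.4, 14.7 and 15.4 CPM in MS_EC12, 9.54, 13.9 and 15.1 CPM in Control_EC12, 13.5, 16.0 and 17.8 CPM in MS, and 13.0, 14.1 and 16.8 CPM in Control (lowest, median and highest). All 6 MS_EC12 libraries lay below the MS mean, though the groups overlapped. MS_EC12 against MS gave −0.27 ± 0.142 log2 units (adjusted p = 0.186), and −0.11 ± 0.11 in the 17 libraries (adjusted p = 0.819). The counts sum over activating and repressing isoforms, which a gene-level table does not separate, and Gm6225, a long noncoding RNA gene with at most 22 counts in a library, overlaps its span.

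**Figure D3:**
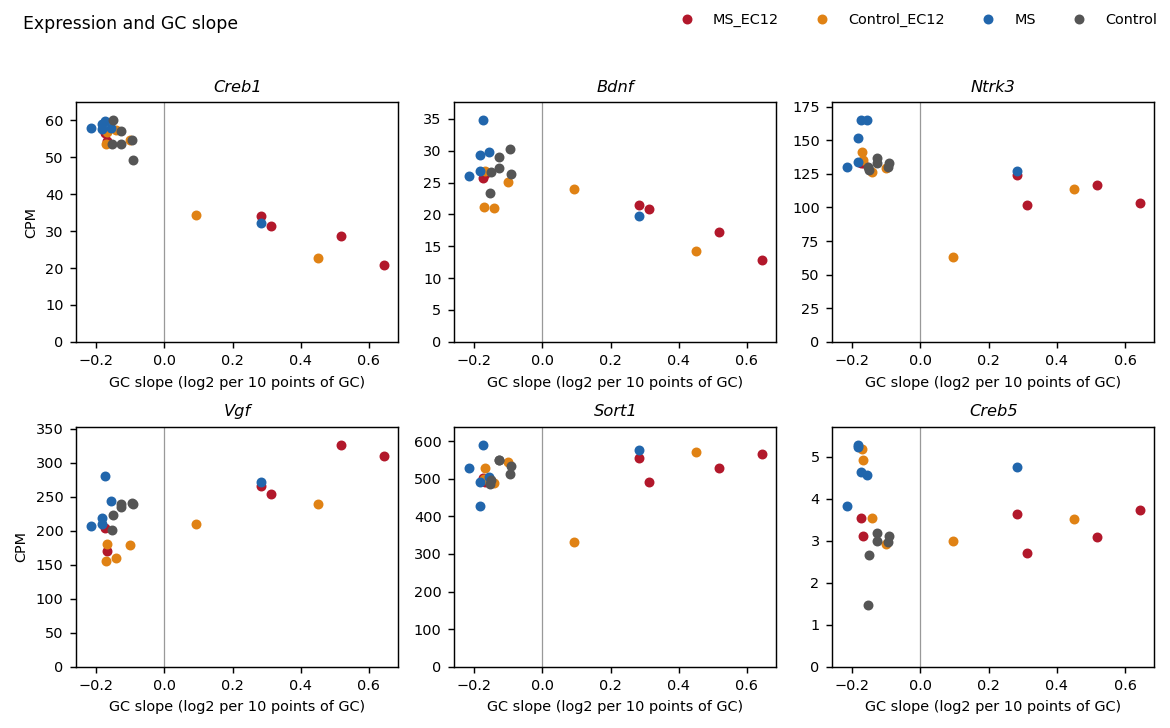
CPM of 6 members (axes from 0) against the GC slope of each of the 24 libraries, coloured by group. Creb1 sits at 49.3 to 60.1 CPM left of 0 and at 20.7 to 34.3 CPM right of it, Vgf at 155 to 280 CPM left of 0 and 210 to 326 CPM right of it, and Creb5 at 1.46 to 5.28 and 2.7 to 4.75 CPM.

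Creb5, a CRE-binding factor of the ATF2 type, was the member with the widest separation between groups. Its lowest, median and highest levels were 2.7, 3.31 and 3.73 CPM in MS_EC12, 2.92, 3.52 and 5.17 CPM in Control_EC12, 3.83, 4.7 and 5.28 CPM in MS, and 1.46, 2.98 and 3.18 CPM in Control. In CPM every MS library lay above every Control library and above every MS_EC12 library. In the deposited TPM the groups overlapped, at 0.688 to 1.77 in MS_EC12, 1.14 to 2.22 in MS and 0.73 to 1.33 in Control, with MS replicate 6 at 1.14 TPM inside both other ranges and the other MS libraries at 2.0 to 2.22 TPM. Creb5 was the only one of the 10 with groups that did not overlap in CPM for MS against Control, where 0.718% of all genes did not overlap, and for MS_EC12 against MS, where 0.854% did not. The 10 genes were chosen with earlier results of these data known, so these counts are a description and not a test. No member was free of overlap in Control_EC12 against Control (1.33% of genes), MS_EC12 against Control_EC12 (0.468%) or MS_EC12 against Control (5.19%).

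For MS against Control, Creb5 differed by 0.79 ± 0.165 log2 units, which did not pass in the fit of all 24 libraries (adjusted p = 0.0969 in edgeR). It rose in MS in the 17 libraries, by 0.80 ± 0.175 (adjusted p = 0.0453), and with the GC slope as a covariate, by 0.80 ± 0.161 (adjusted p = 0.0219). DESeq2 on all 24 libraries gave 0.81 ± 0.168 (adjusted p = 0.0031). Over the alternatives the fold change for MS against Control ran from 0.42, in log2(TPM + 1), to 0.81, and the adjusted p from 0.0031 to 0.898. Control replicate 1 was the lowest library, at 1.46 CPM, and without it the fold change was 0.66 (adjusted p = 0.125), the lowest when any 1 library was left out, with 0.85 as the highest.

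In the full edgeR fit the Creb5 fold changes for the supplement had opposite signs in the 2 rearing groups, and neither passed. MS_EC12 against MS gave −0.52 ± 0.163 (adjusted p = 0.0833), and −0.51 ± 0.244 in the 17 libraries (adjusted p = 0.528), with 0 of 6 MS_EC12 libraries above the MS mean. Control_EC12 against Control gave 0.49 ± 0.166 (adjusted p = 0.346), and 0.60 ± 0.188 in the 17 libraries (adjusted p = 0.163). All 6 Control_EC12 libraries lay above the Control mean, which includes Control replicate 1 at 1.46 CPM. The lowest fold change of Control_EC12 against Control when any 1 library was left out was 0.36. Over the alternatives it ran from 0.23 to 0.605. In TPM, Control_EC12 ran from 0.796 to 2.44 and overlapped Control at 0.73 to 1.33. Tested as the interaction of rearing and supplement, the difference between the 2 supplement comparisons was −1.01 ± 0.233 (adjusted p = 0.238 in edgeR). In the 17 libraries it was −1.12 ± 0.309 (adjusted p = 0.473). DESeq2 called the interaction (−1.01 ± 0.237, adjusted p = 0.021). Over the alternatives the interaction ran from −1.12 to −0.60, and the adjusted p from 0.021 to 0.85. MS_EC12 and Control differed by 0.28 ± 0.166 (adjusted p = 0.22) and overlapped. The summed level of 6 meningeal fibroblast markers ran from 103 to 157 CPM in MS_EC12 and 140 to 196 in Control_EC12. It ran from 108 to 130 CPM in MS and 125 to 149 in Control. Its medians were 138 CPM in MS_EC12, 170 in Control_EC12, 121 in MS and 137 in Control. The part of cell composition in the Creb5 values was not tested.

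Vgf, a CREB target that encodes a secreted neuropeptide precursor induced by neurotrophins, was lowest in the Control_EC12 group. Its lowest, median and highest levels were 170, 260 and 326 CPM in MS_EC12, 155, 179 and 239 CPM in Control_EC12, 206, 230 and 280 CPM in MS, and 201, 237 and 240 CPM in Control. The 4 Control_EC12 libraries with slopes below 0 held 155, 160, 178 and 180 CPM, below every Control library, and the 2 above 0 held 210 and 239 CPM. In all 24 libraries the log2 fold change for Control_EC12 against Control was −0.30 ± 0.131 and did not pass (adjusted p = 0.508 in edgeR). In the 17 libraries Vgf fell in Control_EC12 by 0.45 log2 units (SE 0.0815, adjusted p = 0.0172). With the GC slope as a covariate the fold change was −0.41 ± 0.07 (adjusted p = 0.00406).

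The sign of the Vgf difference of MS_EC12 from MS and from Control depended on the libraries used, while that from Control_EC12 stayed positive. MS_EC12 against Control_EC12 gave 0.45 ± 0.131 (adjusted p = 0.167) and 0.15 ± 0.108 in the 17 libraries (adjusted p = 0.629). MS_EC12 against MS gave 0.10 ± 0.131 (adjusted p = 0.602), but −0.31 ± 0.106 in the 17 libraries (adjusted p = 0.331). MS_EC12 against Control gave 0.15 ± 0.131 (adjusted p = 0.4), but −0.30 ± 0.103 in the 17 libraries (adjusted p = 0.183). The 2 MS_EC12 libraries with slopes below 0 held 170 and 204 CPM, and the 4 above 0 held 254 to 326 CPM. Vgf transcripts have a median GC content of 64.5%, the highest of the 10. MS and Control differed by 0.05 ± 0.131 (adjusted p = 1.0).

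In the wider pathway, 89 further genes stood in 5 lists and 88 of them were tested. None passed in all 24 libraries for MS against Control, Control_EC12 against Control, MS_EC12 against MS or the interaction. For MS_EC12 against Control_EC12, where 0.261% of all genes passed, 2 fell, both CREB targets: the nuclear receptor gene Nr4a3, by 0.94 log2 units (SE 0.14, adjusted p = 0.00162), and the immediate early gene Fos, by 0.71 (SE 0.151, adjusted p = 0.042). Nr4a3 averaged 27.5 ± 6.0 CPM in MS_EC12 and 52.8 ± 8.51 CPM in Control_EC12 (SD, n = 6). Its log2 fold change was −1.37 ± 0.18 in the 17 libraries (adjusted p = 0.00276), while Fos did not pass there (−0.99 ± 0.229, adjusted p = 0.0747) and passed with the GC slope as a covariate (−0.80 ± 0.155, adjusted p = 0.0146). For MS_EC12 against Control 3 genes rose and 19 fell, against 14.1% of all genes tested that passed in either direction. In the 17 libraries 6 of the 88 fell there and 0 rose, against 1.05% of all genes that passed.

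The counts by list for MS_EC12 against Control stand beside 14.1% of all genes that passed in all 24 libraries and 1.05% in the 17 libraries. In all 24 libraries, 2 of 9 ligand and processing genes fell (Pcsk1 and Pcsk5, which encode proprotein convertases), as did 2 of 8 receptor genes (Sorcs1 and Sorcs3, relatives of sortilin). None of these 4 passed in the 17 libraries, where Pcsk1 was at −0.19 (adjusted p = 0.43), Pcsk5 at −0.18 (0.493), Sorcs1 at −0.11 (0.638) and Sorcs3 at −0.36 (0.0813), or with the GC slope as a covariate. Of 30 signal transduction genes 7 fell and 2 rose, but 0 did either in the 17 libraries or with the covariate. Sos1, the Ras activator downstream of Trk receptors, differed by −0.46 ± 0.106 (adjusted p = 0.0227). In the 17 libraries Sos1 was at −0.24 ± 0.0716 (adjusted p = 0.121). Of 18 CREB relatives, coactivators and kinases 4 fell, among them Sik2, a kinase that restrains CREB coactivators, at −0.32 ± 0.0922 (adjusted p = 0.0354), which also passed in the 17 libraries at −0.42 ± 0.0842 (adjusted p = 0.023) but not with the covariate (−0.36 ± 0.102, adjusted p = 0.153). Of 23 CREB target genes 4 fell and 1 rose. The median log2 fold change of the CREB targets was −0.215, against 0.00745 over all genes, and −0.21 in the 17 libraries, against 0.000394. The list was chosen with earlier results of these data known, so its median is a description and not a test.

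CREB targets also had a lower median log2 fold change in MS against Control, at −0.188, against −0.00574 over all genes. The same limit on the choice of the list applies to this median. None of the 23 passed in all 24 libraries, and 3 fell in the 17 libraries, where 0.484% of all genes passed: Per1, Nr4a3 and Egr1. Per1, a clock gene induced by CREB, averaged 82.6 ± 9.17 CPM in MS and 121 ± 5.27 CPM in Control (SD, n = 6), without overlap between 71.0 to 96.2 and 113 to 127 CPM. Its log2 fold change was −0.55 ± 0.112 (adjusted p = 0.0944) and −0.57 ± 0.07 in the 17 libraries (adjusted p = 0.000513). Nr4a3 was at −0.66 ± 0.139 (adjusted p = 0.0969) and −0.63 ± 0.118 in the 17 libraries (adjusted p = 0.0152). Egr1, an immediate early gene, was at −0.46 ± 0.128 (adjusted p = 0.504) and −0.52 ± 0.0976 in the 17 libraries (adjusted p = 0.0155). In Control_EC12 against Control, Homer1, a synaptic scaffold gene, was at −0.60 ± 0.124 (adjusted p = 0.0669). It passed in the 17 libraries at −0.44 ± 0.0862 (adjusted p = 0.0252), as did Sik2 at −0.37 ± 0.0657 (adjusted p = 0.0166). Sik2 was lower in MS than in Control too, at 51.5 to 54.7 against 58.6 to 74.4 CPM. For MS against Control Sik2 passed in the 17 libraries (−0.29 ± 0.0611, adjusted p = 0.031). It did not pass in all 24 (−0.30 ± 0.0922, adjusted p = 0.734) or with the covariate (−0.30 ± 0.0863, adjusted p = 0.188).

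**Figure D4:**
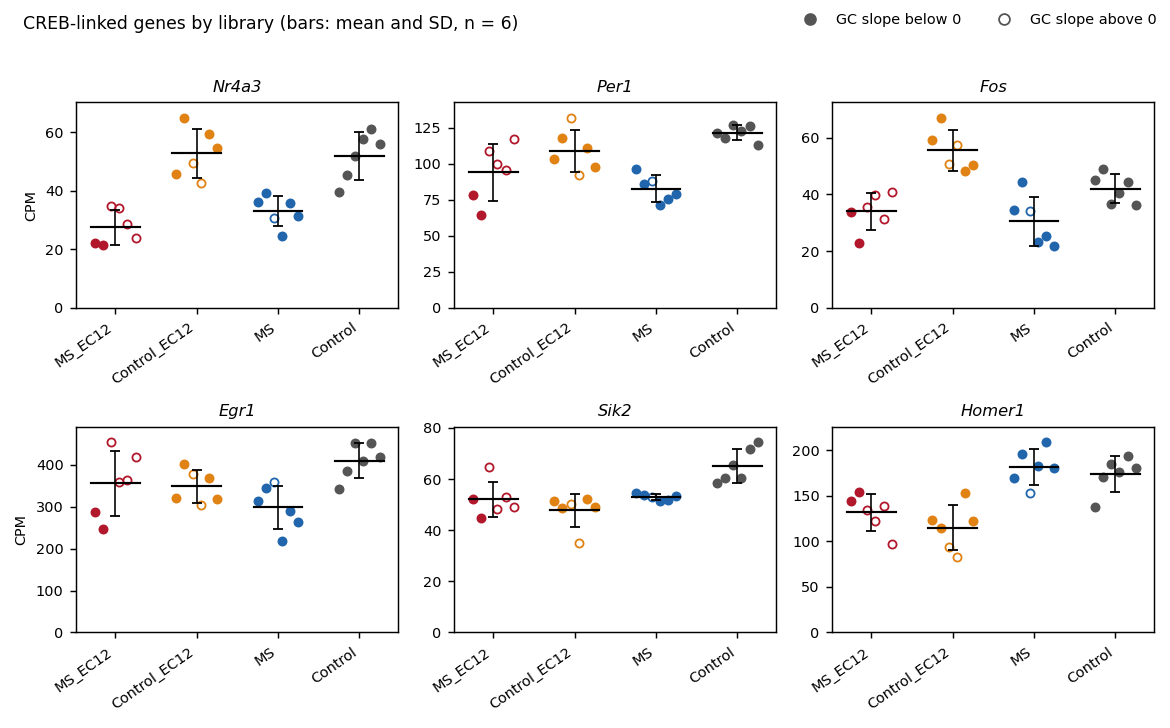
Levels of 5 CREB target genes and of Sik2 in each library, in CPM on axes from 0, with open points for libraries with a GC slope above 0 and bars for the mean and SD of 6 libraries. Per1 in MS (71.0 to 96.2 CPM) lies below all Control points (113 to 127 CPM), and Nr4a3 in MS_EC12 (21.4 to 34.9 CPM) below all Control_EC12 points (42.7 to 65.1 CPM).

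The genes whose variation between libraries of the same group was most like that of each member are given as a description over 24 libraries, which share depth, GC slope and dissection. Creb1 was followed most closely, by Appl1 and U2surp (Pearson's r = 0.986 for both). For Ntrk3 the nearest gene was Arfgef3 (0.972), for Sort1 Vps33a (0.972) and Sel1l (0.942), and for Vgf Eef1a2 (0.958) and Atp9a (0.946). Bdnf was nearest to Atp6v1c1 (0.937) and Syt4 (0.932), Ntrk2 to Erc1 (0.932) and Fmn2 (0.898), Ngfr to C1ql2 (0.91) and Stk32b (0.888), and Crem to 1700019D03Rik and Medag (0.874 for both). The low-count members had weaker neighbours: Creb5 Snai3 (0.73) and LOC115488909 (0.693), and Ntf3 Pimreg (0.658) and LOC115489947 (0.648).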

How the data were processed

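RNA from the prefrontal cortex was extracted with ISOGEN II and made into stranded mRNA libraries, per the labels' protocols. The tools in the submitters' processing notes are DESeq2, StringTie 2.1.3b, HISAT2 2.1.0, Trimmomatic 0.38 and FastQC 0.11.7, with mm10 as the build. How reads were counted, and whether by strand, is not given in the sources used here. Per gene, the table deposited by the authors has raw read counts. It also holds TPM and FPKM values that the authors computed, per the file headers. TPM served for levels between genes and 1 alternative. The deposited FPKM columns were not used. Each column of values mapped to 1 sample, and 0 rows lacked a gene name.

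Counts were tested in edgeR 4.0.16 under R 4.3.3 by its quasi-likelihood method. Scaling was by TMM, and the 4 groups of all 24 libraries shared 1 fit. The filter was filterByExpr (minimum count 10, minimum total 15), which left 18380 genes. Tests were 2-sided and p-values were adjusted by Benjamini-Hochberg over all genes tested, with a threshold of 0.05. DESeq2 1.42.0 and limma 3.58.1 on log2(TPM + 1) were alternatives, with the others named in the closing section. The GC slope was computed from tested genes with a GC value (92.66%). No 2 libraries were duplicates, with a smallest chi-square per gene of 5.02. The code was tested on simulated data.

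The members and lists were chosen with earlier results of these data known. Named pathway genes were, per list and comparison, up to 4, passing ones first and then by smallest p. For each member the 2 genes most correlated with it in log2 CPM (prior count 2) after subtracting group means were named. Some genes that these rules select are not reported here. Promoters came from RefSeq (GRCm38.p6). Ntrk3, Sort1, Vgf and Crem have none shown. Counts per library were lowest for Ntf3 (12 to 41).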

Additional observations from a re-analysis of the deposited data

Results flagged for a closer look

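Of 44 groups of 6 libraries examined (10 genes and the GC slope in 4 groups), 6 held a library whose gap to its nearest neighbour was too large a part of the group's range by Dixon's test for outliers. Chance flags about 1 in 20 groups. MS replicate 3 was far from its group in Creb1, at 32.3 CPM with the next library at 57.8 CPM, and in GC slope, at 0.283 with the next at −0.158. Control_EC12 replicate 4 was far below its group in Ntrk3, at 63.4 CPM with the next at 114 CPM, and in Sort1, at 332 CPM with the next at 490 CPM. Its GC slope was above 0, and mitochondrial genes took 11.5% of its counts, against 6.95 to 9.24% in the other 23 libraries. The part of these in its values was not tested. Control_EC12 replicate 3, with a slope also above 0, was the lowest for Crem, at 9.54 CPM with the next at 13.1 CPM. Control replicate 1 was the lowest for Creb5, at 1.46 CPM with the next at 2.65 CPM, and its slope was below 0.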

How the results depend on the processing

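The number of members that changed was 0 in all 6 comparisons of the full fit. It was also 0 with DESeq2 size factors, without the filter on low counts and with only the groups compared. For MS against Control it was 1 (Creb5) in the 17 libraries, 1 with the GC slope as a covariate and 1 with DESeq2. For Control_EC12 against Control it was 1 (Vgf) in the 17 libraries and 1 with the covariate. For MS_EC12 against MS it was 1 with DESeq2 (Creb5), and for the interaction 1 with DESeq2 (Creb5). For MS_EC12 against Control it was 2 with limma on log2(TPM + 1) (Bdnf and Creb1). Leaving out 1 library gave 0 to 3 members for MS_EC12 against MS, where Bdnf, Creb1 and Creb5 passed without MS_EC12 replicate 1, without MS_EC12 replicate 2 or without MS replicate 3. It gave 0 to 2 for MS_EC12 against Control, where Bdnf and Creb1 passed without MS_EC12 replicate 1 or 2. It gave 0 to 1 for MS_EC12 against Control_EC12, where Vgf passed without MS_EC12 replicate 1 or without Control_EC12 replicate 3, and 0 for the other 3. Of all 18380 genes tested, 5064 passed for MS_EC12 against MS and 6565 for MS_EC12 against Control without MS_EC12 replicate 1. Without Control_EC12 replicate 3, 189 passed for MS_EC12 against Control_EC12. Without MS_EC12 replicate 1, the member calls against MS and against Control thus came where many genes passed. The totals over all genes without MS_EC12 replicate 2 or without MS replicate 3 are not given here. The cause of the changes in member counts was not tested.

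At most 4 of 6 same-numbered pairs of libraries had deviations correlated above 0.1, with correlations between −0.3 and 0.46. Pairs with different numbers were not compared, so these values cannot decide whether replicate numbers pair the libraries. With the replicate block, 3 members passed in MS_EC12 against MS, 1 in MS_EC12 against Control_EC12 and 2 in MS_EC12 against Control, and 0 in the other 3. Over all alternatives, up to 3809, 232 and 5939 of all genes passed in MS_EC12 against MS, against Control_EC12 and against Control. These are the highest totals of any alternative. The totals with the replicate block alone and with limma alone are not given here, so the member counts of those fits have no share beside them.

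Over all genes, the number that passed was 6 for MS against Control, with 4 to 89 over the alternatives and 2 to 8 when 1 library was left out. For Control_EC12 against Control it was 4, with 2 to 132 and 4 to 24. For MS_EC12 against MS it was 30, with 0 to 3809 and 0 to 5064. For MS_EC12 against Control_EC12 it was 48, with 2 to 232 and 14 to 189. For MS_EC12 against Control it was 2594, with 41 to 5939 and 10 to 6565. For the interaction it was 2, with 0 to 19 and 0 to 4. Nptx2, which rose in MS_EC12 against Control in all 24 libraries (0.39), was at −0.013 in the 17 libraries. Of the 60 log2 fold changes of members, 20 changed sign in the 17 libraries and 17 with the covariate, none of them past the threshold. Counts were lowest for Ntf3, at 12 to 41 per library, and its SEs were 0.259 to 0.261 in the group comparisons.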
